A study of Mus musculus with 8 samples.

Results

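The mitotic spindle is built and taken apart by kinesin motors, microtubule-binding proteins and the Aurora kinases, and the cell is then cut in 2 by the machinery of cytokinesis. The 33 genes described here encode 11 kinesins, 8 proteins of spindle assembly and spindle poles, the pole kinases Aurora A and Nek2, the 4 proteins of the chromosomal passenger complex, 6 proteins of the spindle midzone and cytokinesis, and the separase and securin pair. They were chosen by name as a functional module, with earlier results of these data known. All 33 were represented among the 18193 genes of the array, each by its probe set with 1 gene symbol and the highest mean over all 8 arrays, and none was dropped by a filter on low values.

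The samples were bone marrow cells positive for Cd11b, the integrin subunit of granulocytes and monocytes, taken at an age of 8 weeks from mice of mixed FVB and C57BL6 background. The 4 control samples had the genotype E2F1-/-2+/+3f/f and the 4 experimental samples Mxcre;E2F1-/-2-/-3f/f, so both groups lacked E2f1 and carried floxed E2f3, and the experimental group lacked E2f2 as well and carried the Cre transgene. The Mx promoter responds to interferon and is not restricted to myeloid cells. All mice received pIpC, an RNA mimic that triggers interferon and so the Cre, in 5 doses of 250 µg every other day, with tissue taken 24 h after the fifth. No control carried Cre, so the effects of Cre and of the E2f genotype cannot be told apart. The labels do not say that each sample came from its own animal, so the p-values reflect only how far these samples vary, and that variation may be technical.

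Most of these genes are transcribed late in the cell cycle, peak in G2 and mitosis, and are nearly silent in resting cells. E2F factors act first at the entry into S phase. Many late genes carry a CHR element, often beside CCAAT boxes, through which the DREAM complex represses them in resting cells and the B-Myb, MuvB and FoxM1 proteins activate them in dividing cells. In bone marrow they mark dividing precursors, since mature neutrophils do not divide.

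The arrays were alike in scale, with medians over all probe sets between 5.01 and 5.04 on the log2 scale. Itgam, the gene of the sort marker Cd11b, read 11.58 in controls and 11.54 in experimental samples, and all 13 measured genes of a list of defining myeloid markers lay above the array medians. Of the targeted genes, E2f2 was lower at its dimmer probe set, with 7.92 ± 0.19 against 7.26 ± 0.21 (SD, n = 4 each; limma adjusted p = 0.0351). Its brighter probe set differed by -0.55 (adjusted p = 0.107). The brighter of 2 probe sets of E2f3, the floxed gene, had a higher mean in the experimental group, with 7.60 ± 0.11 against 7.88 ± 0.15 (adjusted p = 0.201), and each experimental array lay above each control. E2f1, absent by label from both groups, also had a higher mean at its brightest probe set, with 6.86 ± 0.16 against 7.44 ± 0.54 (adjusted p = 0.236). None of the 2 probe sets of E2f3 and 3 of E2f1 passed, so the arrays do not check the labelled loss of these genes, and where any of them lies relative to the deleted exons was not analysed here. Of all 45037 probe sets, 696 fell (1.55%) and 466 rose (1.03%) by limma at adjusted p 0.05.

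Most genes of the spindle and of cytokinesis had lower values in the experimental samples. Of the 33, 29 had a lower mean and 4 a higher one, and 6 fell past adjusted p 0.05, namely the motors Kif11, Kif2c and Kif4, the spindle proteins Nusap1 and Aspm, and the midzone protein Prc1. None rose (limma, with 0 higher also at an unadjusted p of 0.05, where 21 were lower). Over all genes that unadjusted threshold took 9.8% lower and 9.08% higher. The background of the same call was 1.95% of genes lower and 1.53% higher, and 47.1% of genes had a lower mean. The median log2 difference of the 33 was -0.40, against 0.01 for all genes. In 15 of the 33 every experimental array lay below every control, a pattern seen in 6.79% of genes, and no member showed the opposite one, seen in 5.62% of genes. The falls were moderate, between 1.43-fold for Kif4 and 1.88-fold for Nusap1 among the 6. In bulk samples fewer dividing cells and less RNA per dividing cell cannot be told apart.

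**Figure D1:**
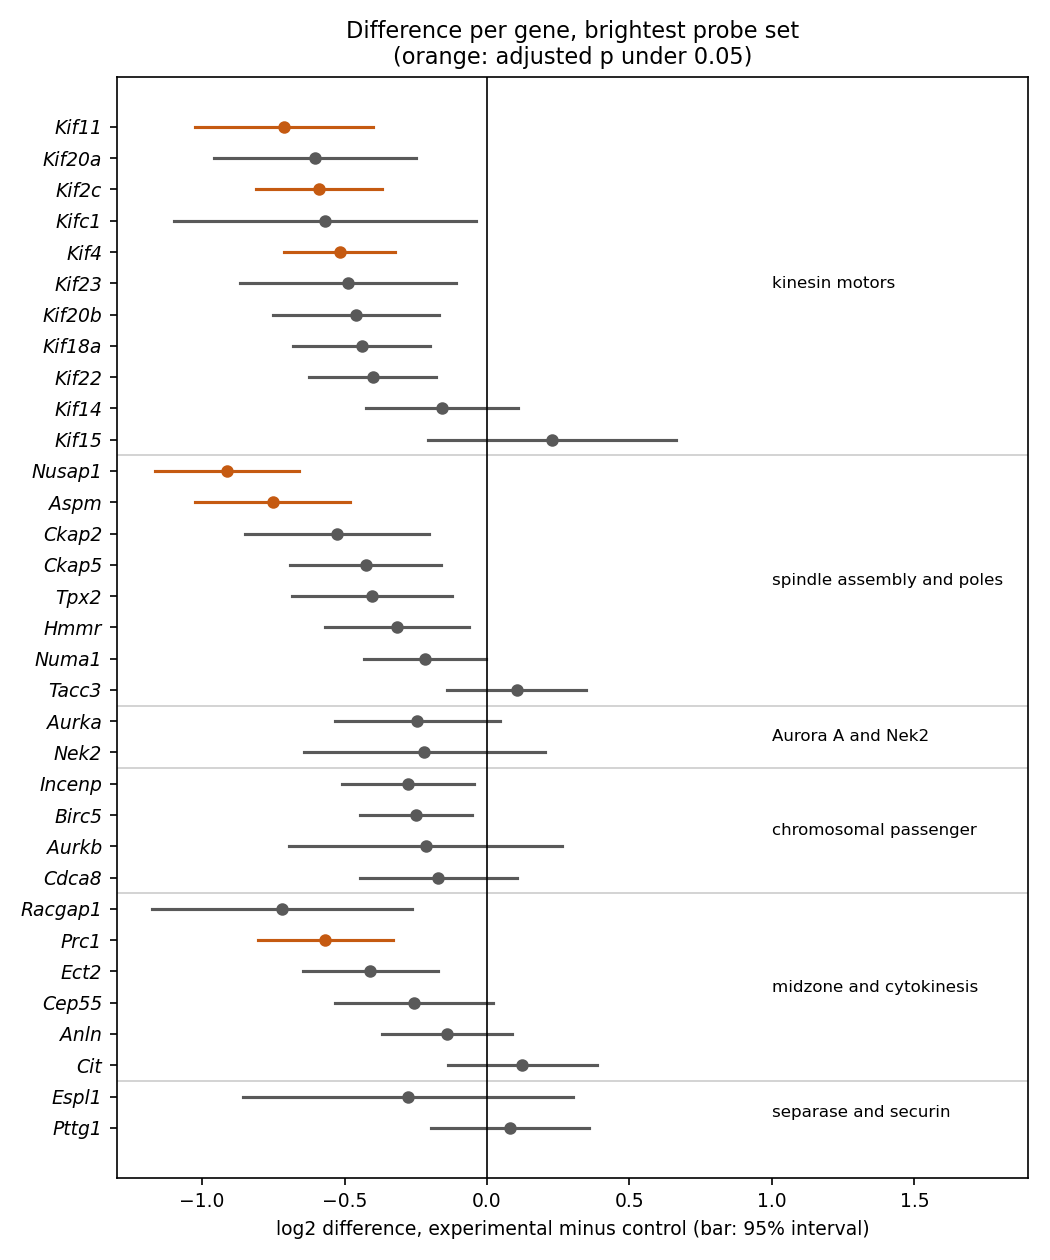
The log2 difference, experimental minus control, is plotted for each of the 33 genes by role, with its 95% interval from the limma fit. The 6 genes past adjusted p 0.05 are orange, Nusap1, Aspm, Racgap1 and Kif11 lie furthest to the left, and Kif15, Tacc3, Cit and Pttg1 lie right of 0.

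The call depended on which arrays were used. With replicate number as a block, the number that fell was 10, against a background of 3.02% of genes, and the 4 added genes were Kif18a (adjusted p = 0.0418), Kif20a (0.0382), Ckap2 (0.0372) and Racgap1 (0.0300). With a block for how the sample codes are written in the labels (digit then letter, or letter then digit) it was 11, against a background of 3.48%, with Kif22 as the further one (adjusted p = 0.0471). Leaving out control replicates 1 to 4 in turn gave 1, 2, 4 and 2 genes, against 0.835%, 0.742%, 1.21% and 0.72% of all genes. Leaving out experimental replicates 1 to 4 gave 5, 7, 9 and 3, against 1.04%, 2.52%, 1.31% and 1.04%. Other models gave 7 with array weights (2.36% of all genes), 6 with trended and robust variance (1.73%) and 5 with a block for sex (1.1%). Rescaling gave 6 with median centring (1.68%) and 6 with quantile normalization (1.9%). Other handling of probe sets gave 8 with a gene's probe sets averaged (2.65%), 4 with the most variable one (2.21%) and 6 among those above the median level (3.52%). Without each of these arrays the median of the 33 stayed between -0.42 and -0.32.

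Kif11 is the plus-end-directed motor that slides antiparallel microtubules apart and separates the spindle poles. It read 8.93, 8.64, 8.87 and 8.76 in the 4 control arrays, and 7.72, 8.17, 8.37 and 8.09 in the experimental arrays. The groups did not overlap, and experimental replicate 1 was the lowest. The difference was -0.71 ± 0.14 (SE, n = 4 per group), with limma adjusted p = 0.0318, which leaves 61.1% of the control level. Its 3 probe sets were all lower, and 2 of them passed. The call was lost in the fits without any 1 control and without experimental replicate 4 (adjusted p up to 0.0959).

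Kif2c, the kinesin-13 that depolymerises microtubules and corrects faulty kinetochore attachments, read 9.15, 9.08, 8.98 and 8.98 in controls and 8.26, 8.51, 8.59 and 8.47 in experimental samples. Again the groups did not overlap, and the controls lay within a narrow band. The difference was -0.59 ± 0.10 (SE; adjusted p = 0.0177), with all 4 probe sets lower and 1 of them past the threshold. The set that passed carries the suffix that Affymetrix gives to sets whose probes may bind other transcripts. The others had limma adjusted p from 0.0761 to 0.261. Kif2c did not pass without control replicate 1, 2 or 4 (adjusted p up to 0.0628). Kif4, the chromokinesin that shortens microtubules at the midzone, read 8.08, 7.90, 7.89 and 7.81 in controls and 7.39, 7.44, 7.39 and 7.39 in experimental samples. The experimental values were nearly identical and all below the controls. The difference was -0.52 ± 0.09 (SE; adjusted p = 0.0184), lost without control replicate 1 or 2 or experimental replicate 4 (adjusted p up to 0.0589).

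The other motors leaned the same way without passing, apart from 1. Kif20a, the kinesin that carries the passenger complex to the midzone, read 8.35, 8.38, 8.50 and 8.34 in controls and 7.36, 7.89, 8.18 and 7.71 in experimental samples. Its groups were separate, but the experimental arrays spread over a wide range, with replicate 1 lowest and replicate 3 highest. The difference was -0.60 ± 0.16 (SE; adjusted p = 0.0838). Kif22, a chromokinesin that pushes chromosome arms towards the plate, read 10.89, 10.65, 10.69 and 10.69 in controls and 10.20, 10.25, 10.46 and 10.41 in experimental samples. These groups were also separate, with a difference of -0.40 ± 0.10 (SE; adjusted p = 0.0704) at its brightest probe set. A dimmer probe set of Kif22 fell by 0.75 on the log2 scale (adjusted p = 0.0152), and the brightest one carries the suffix that Affymetrix gives to sets whose probes may bind other transcripts.

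Of the remaining motors, Kif18a (-0.44), which damps chromosome oscillations, and Kif23 (-0.49), the centralspindlin motor of cytokinesis, had separate groups, whereas Kif20b (-0.46) and the minus-end motor Kifc1 (-0.57) overlapped. The dimmer of the 2 probe sets of Kif18a had the opposite sign, at 0.08, and lay at 2.29 in controls. Kifc1 was uneven, with 6.63 and 6.68 in experimental replicates 1 and 4 but 7.42 and 7.78 in replicates 2 and 3, against 7.60 to 7.79 in controls. Kif14 (-0.16), a midbody kinesin, lay at 2.84 in controls, and Kif14, Kif15 and Kif18a lay below the array medians. Kif15, a plus-end motor that can stand in for Kif11, was the motor with a higher mean, by 0.23 ± 0.19 (SE; adjusted p = 0.607). It read 4.70, 4.47, 5.11 and 4.67 in controls and 5.50, 4.90, 4.65 and 4.82 in experimental samples, so that the groups overlapped, with replicate 1 the highest.

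**Figure D2:**
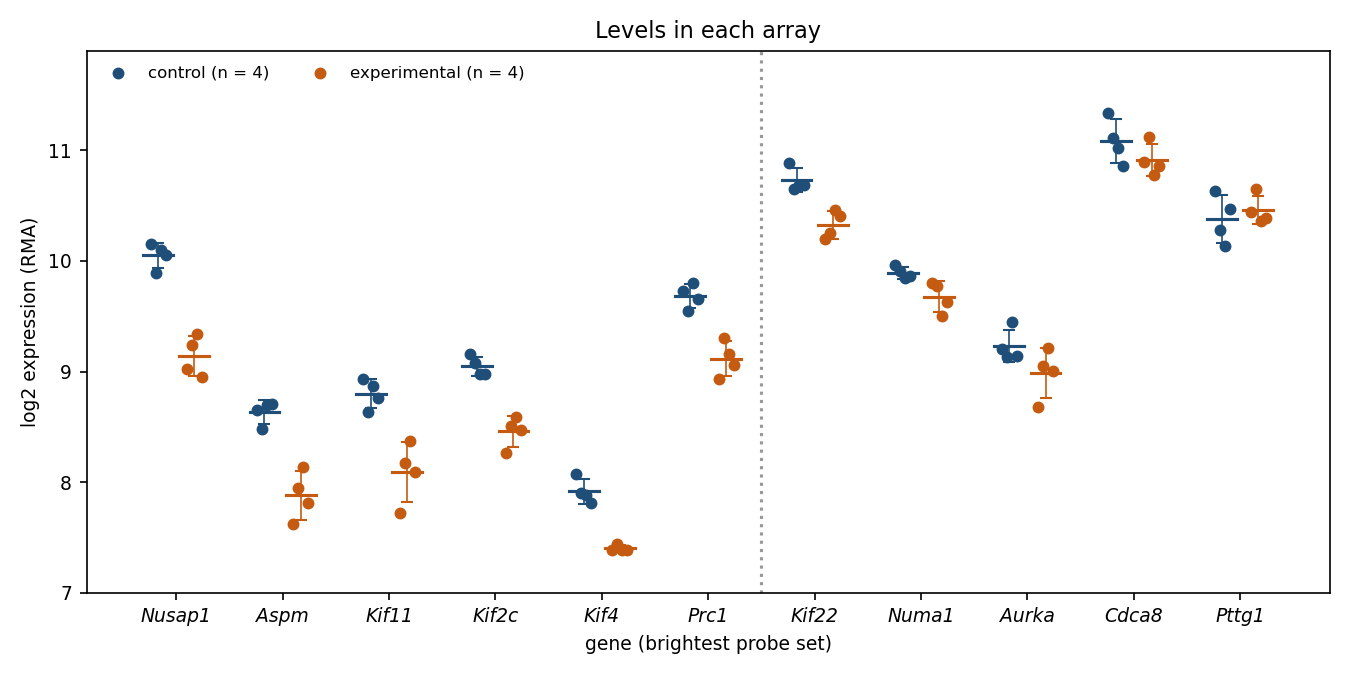
The log2 level of 11 genes is plotted for each array, with 4 controls in blue and 4 experimental arrays in orange, the mean as a line and the SD as a bar. Left of the dotted line stand the 6 genes that fell, with no overlap between the groups. Right of it stands the brightest member of each role group apart from Prc1, which is among those that fell. Of the genes right of the line, Kif22 and Numa1 are also separate.

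Among spindle assembly proteins, Nusap1, which bundles microtubules near the chromosomes, gave the largest fall of the 33. It read 10.15, 9.89, 10.10 and 10.05 in controls and 9.03, 9.24, 9.34 and 8.95 in experimental samples. The gap between the groups exceeded the spread within either. The difference was -0.91 ± 0.11 (SE; adjusted p = 0.00589), which leaves 53.2% of the control level. It also passed whichever of the 8 arrays was left out (adjusted p = 0.00897 to 0.0239). Its second probe set lay near the array medians and differed by -0.20 (adjusted p = 0.376).

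Aspm, which focuses microtubule minus ends at the spindle poles, read 8.66, 8.48, 8.69 and 8.71 in controls and 7.62, 7.95, 8.14 and 7.82 in experimental samples. The groups were separate at this probe set, and all 5 probe sets of Aspm were lower, with 1 of them past the threshold. The difference was -0.75 ± 0.12 (SE; adjusted p = 0.0152), lost without control replicate 1 or 4 (adjusted p up to 0.0555). Ckap2 (-0.53), Ckap5 (-0.43), Tpx2 (-0.40) and Hmmr (-0.32) were lower without passing. Tpx2 activates Aurora A on the spindle, Ckap5 is a microtubule polymerase and Hmmr anchors the poles. Ckap5 and Tpx2 had separate groups, with experimental replicate 3 closest to the controls in both. Of the 4 probe sets of Tpx2, 3 were lower, and the exception differed by 0.0018.

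Numa1 and Tacc3 also act at the spindle poles and along its fibres, and neither passed. Numa1, a large protein that tethers dynein at the poles and also fills the nucleus between divisions, read 9.96, 9.91, 9.84 and 9.86 in controls and 9.80, 9.78, 9.50 and 9.63 in experimental samples. The difference was small, at -0.22 ± 0.10 (SE; adjusted p = 0.283), although the groups did not overlap, and 1 of its 3 probe sets had the opposite sign. Tacc3, the Aurora A substrate that binds Ckap5, had a mean difference of 0.10 ± 0.11 (SE; adjusted p = 0.687), with a 95% interval from -0.14 to 0.35 and all 3 probe sets on the same side. At the dimmest of the 3 the difference was 0.34 (limma unadjusted p = 0.0137, adjusted p = 0.158), with every experimental array above every control.

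The kinases of the poles and the chromosomal passenger complex showed smaller differences, and none of these 6 genes passed. Aurka, the gene of Aurora A, read 9.21, 9.13, 9.45 and 9.15 in controls and 8.68, 9.05, 9.22 and 9.01 in experimental samples. These overlapped, and the difference was -0.25 ± 0.13 (SE; adjusted p = 0.378, 95% interval -0.53 to 0.04). Nek2, a kinase that splits the centrosomes, differed by -0.22 ± 0.19 (SE; adjusted p = 0.612), with experimental replicate 3 above every control at 8.37, and 1 of the 4 probe sets for Nek2 pointed the other way.

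In the passenger complex, Aurora B is the kinase, Incenp its scaffold, and borealin and survivin target it to the centromere. Cdca8, which encodes borealin, read 11.34, 11.11, 11.02 and 10.86 in controls and 10.90, 11.12, 10.78 and 10.85 in experimental samples. The groups overlapped, with a difference of -0.17 ± 0.12 (SE; adjusted p = 0.529, 95% interval -0.45 to 0.10). Aurkb, the gene of Aurora B, split by replicate, with 8.08 and 8.44 in experimental replicates 1 and 2 and 9.13 and 8.98 in replicates 3 and 4, against 8.68 to 9.01 in controls. Replicates 1 and 2 alone gave -0.49 and replicates 3 and 4 alone gave 0.06, while all arrays together gave -0.22 ± 0.21 (SE; adjusted p = 0.667). Incenp (-0.28, adjusted p = 0.207) and Birc5, the gene of survivin (-0.25, adjusted p = 0.183), were lower at an unadjusted p of 0.05, and the arrays of Birc5 were separate. With replicate number as a block the smallest adjusted p of the 4 was 0.167. The intervals of all 4 reached below -0.44, so the failure to pass does not show that they were unchanged. Whether the complex differed less than the motors was not tested. The brightest probe sets of Aurkb and Incenp carry the same suffix as that of Kif22.

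At the midzone, Prc1, the bundler of antiparallel microtubules on which the cleavage apparatus is built, read 9.73, 9.55, 9.80 and 9.65 in controls and 8.93, 9.31, 9.16 and 9.06 in experimental samples. The groups were separate and both probe sets passed. The difference was -0.57 ± 0.11 (SE; adjusted p = 0.0263), leaving 67.5% of the control level. The call was lost in 6 of the 8 fits that leave out 1 array, those without any 1 control or without experimental replicate 1 or 4 (adjusted p up to 0.0811).

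Racgap1, the centralspindlin partner of Kif23, had a mean difference close to that of Kif11, with a wider spread. It read 9.17, 9.06, 9.40 and 9.22 in controls and 8.05, 8.21, 9.08 and 8.64 in experimental samples, so that experimental replicate 3 lay among the controls. The difference was -0.72 ± 0.20 (SE; adjusted p = 0.104). Ect2, the exchange factor that Racgap1 recruits to switch on RhoA, was separate between groups with -0.41 ± 0.11 (SE; adjusted p = 0.0798). The ring protein Anln (-0.14), the abscission scaffold Cep55 (-0.26) and the RhoA-linked kinase Cit (0.12) overlapped, and 3 of the 4 probe sets of Cit had the opposite sign of its brightest one. Of the 10 passenger and cytokinesis genes, 1 fell, against 3 of 11 motors and 2 of 8 spindle assembly proteins. Over all genes 1.95% fell. Without 1 array the count was 0 to 2 for passenger and cytokinesis genes and 0 to 4 for motors. Whether the roles differed was not tested.

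Separase and its inhibitor securin did not pass. Espl1, the gene of separase, differed by -0.28 ± 0.26 (SE; adjusted p = 0.645), with -0.55 within replicates 1 and 2 and -0.01 within replicates 3 and 4. Pttg1, the gene of securin, read 10.63, 10.28, 10.13 and 10.47 in controls and 10.44, 10.65, 10.37 and 10.39 in experimental samples. The groups overlapped fully, with a difference of 0.08 ± 0.12 (SE; adjusted p = 0.797, 95% interval -0.20 to 0.36).

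The experimental arrays were not alike. Experimental replicate 1 held the lowest value of all 8 arrays for 20 of the 33 genes, and experimental replicate 3 held the highest value of its group for 21. The median deviation of the 33 from the control mean was -0.57, -0.28, -0.17 and -0.36 in experimental replicates 1 to 4, and it lay between -0.13 and 0.07 in the controls. Experimental replicate 3 was therefore close to the lowest control, replicate 2. Codes are written digit then letter for replicates 1 and 2 of both groups, and letter then digit for 3 and 4. Within the first style the median difference of the 33 was -0.45 and within the second -0.32. Of the 33, 28 were lower in both styles, against 5478 of all 18193 genes. No member passed within either style (limma, 2 against 2 arrays), where 19 and 13 were lower at an unadjusted p of 0.05 and 1 and 0 higher, and the call itself was rare, at 0.225% and 0.583% of genes.

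**Figure D3:**
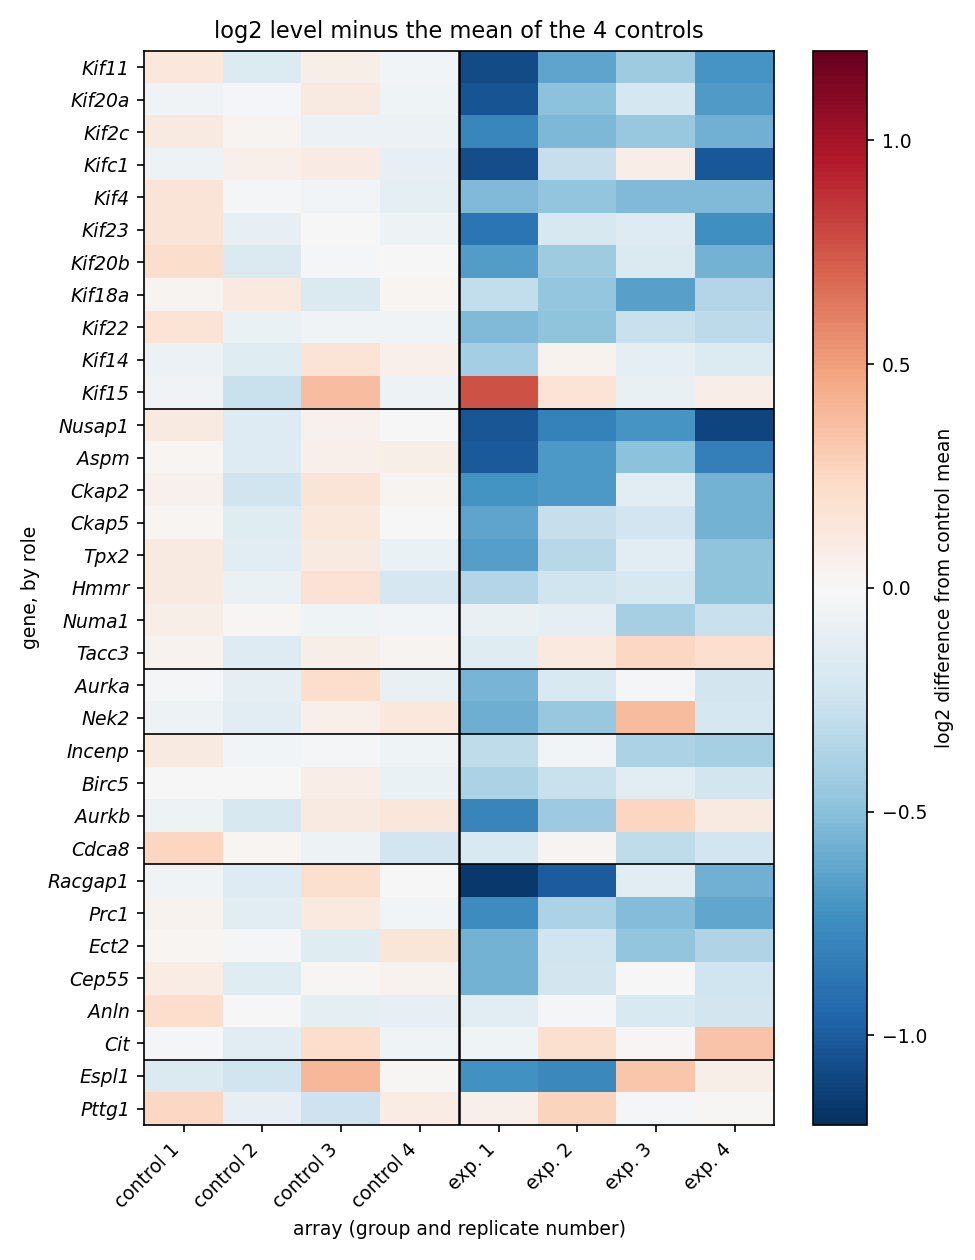
The colour gives, for each gene and array, the log2 level minus the mean of the 4 controls, with genes in rows by role and arrays in columns. Experimental replicate 1 is the darkest blue of its group in 22 rows, replicate 3 is the least blue in 21, and Nek2, Aurkb, Espl1 and Tacc3 are red in replicate 3.

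Genes around these 33 were compared from lists of the same pathway. Of 47 other measured spindle genes, 5 fell and 2 rose, with a median of -0.16. Over all genes the same limma call took 1.95% lower and 1.53% higher. At an unadjusted p of 0.05, 13 of the 47 were lower and 7 higher, and 17 had a higher mean. Every experimental array lay below every control in 13 and above every control in 6, against 6.79% and 5.62% of all genes. Depdc1a, a regulator needed in mitosis, fell by 1.27 on the log2 scale (adjusted p = 0.00932), the kinesin Kif18b by 0.69 (0.0211) and shugoshin, Sgo1, which guards centromeric cohesion, by 0.56 (0.0229). Cenpe, the kinetochore kinesin, and Stmn1, the microtubule destabiliser stathmin, also fell. Tubgcp2, a subunit of the gamma-tubulin ring complex, rose by 0.66 (adjusted p = 0.0101) and Psrc1, a regulator of spindle dynamics, rose by 0.65 (0.0229). Plk1, the master kinase of mitosis, differed by -0.37 (adjusted p = 0.294).

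Kinesins that serve transport were counted separately. Of 28 measured transport kinesins and light chains, which carry cargo in cells that are not dividing, none passed (limma), with a median of -0.02. At an unadjusted p of 0.05, 3 were lower and 2 higher, shares close to the 9.8% and 9.08% of all genes. Kif5b, the conventional kinesin heavy chain, differed by -0.35 (adjusted p = 0.284) and Kif21b by -0.09 (0.773). Of 13 genes of abscission and the contractile ring none passed either (3 lower and 0 higher at an unadjusted p of 0.05), with Myh9, the heavy chain of non-muscle myosin, at -0.13 and Rhoa at -0.36 (adjusted p = 0.126). These serve many other tasks in cells that do not divide.

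Genes of replication licensing and origin firing, which are expressed earlier in the cycle, went the opposite way in the same arrays. Their list also holds Chaf1b, a histone chaperone gene. All 16 measured genes of the list rose, against the background of 1.53%, with differences of 0.47 to 1.33 and a median of 0.98. Cdt1 rose by 1.23 (adjusted p = 0.00113) and Orc1 by 1.31 (0.00124). In each of the 16 every experimental array lay above every control. That contrast was known from earlier results of these data and is no independent evidence.

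**Figure D4:**
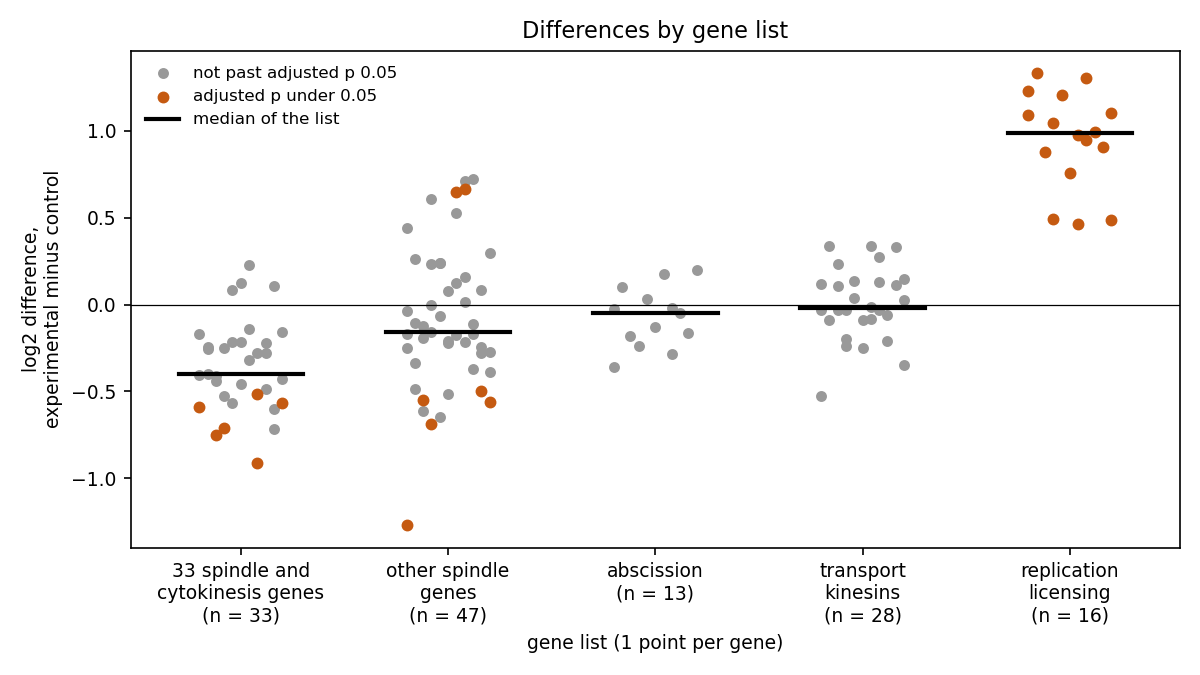
Each point is 1 gene, placed by its log2 difference, experimental minus control, for 5 gene lists, with the list median as a black line and genes past adjusted p 0.05 in orange. The medians are -0.40 for the 33 spindle and cytokinesis genes, -0.16 for other spindle genes, -0.05 for abscission, -0.02 for transport kinesins and 0.98 for replication licensing.

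Promoters were read because most members moved together and because the CHR element is the known mark of this class of gene. RefSeq windows on GRCm38.p6, from 250 bases before to 50 bases after a listed start, were given for 29 of the 33; those of Kif20a, Tpx2, Aurkb and Incenp were not used here. On both strands, TTTGAA or TTCGAA was searched as the CHR core, CCAAT as the CCAAT box, and TTTCGCGC, TTTGGCGC, TTCGCGCC or TTGGCGCC as E2F-like motifs, which can overlap each other at 1 site. A gene counted if any of its listed windows held the motif. The CHR core stood in 21 of the 29 members (72.4%) and in 21.7% of the 27025 genes of the table. CCAAT stood in 17 (58.6%) against 41.1%, and both together in 16 (55.2%) against 8.61%. An E2F-like motif stood in 2 members, Kif15 and Kif18a (6.9%), against 2.05%, and in 6 of 12 genes of the licensing list (50.0%). Of those 12, 9 held CCAAT (75.0%), 4 the CHR core (33.3%) and 4 both (33.3%). A match is a description and not a shown binding site.

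Shown here are the 150 bases before the start, 5′ to 3′ on the strand of the gene, for 2 motors and the midzone gene whose CHR core and CCAAT box lie close together, for the motor with a higher mean, and for the gene with the largest fall. The capitals mark the CHR core (TTTGAA or its complement TTCAAA), the CCAAT box (or its complement ATTGG) and, in Kif15, an E2F-like motif joined to a CHR core. Nusap1 has no capitals because none of the motifs is in its window. The positions are chr19:37376232-37376381 (plus strand) for Kif11, chr7:127042421-127042570 (minus strand) for Kif22, chr7:80294326-80294475 (plus strand) for the second listed start of Prc1, chr9:122950931-122951080 (plus strand) for Kif15 and chr2:119618148-119618297 (plus strand) for Nusap1.
Kif11: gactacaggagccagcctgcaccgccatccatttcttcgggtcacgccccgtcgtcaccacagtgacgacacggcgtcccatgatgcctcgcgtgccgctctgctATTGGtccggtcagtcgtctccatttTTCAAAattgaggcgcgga
Kif22: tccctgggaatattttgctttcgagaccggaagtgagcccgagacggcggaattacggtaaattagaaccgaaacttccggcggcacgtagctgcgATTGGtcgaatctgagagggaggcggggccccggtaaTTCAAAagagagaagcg
Prc1: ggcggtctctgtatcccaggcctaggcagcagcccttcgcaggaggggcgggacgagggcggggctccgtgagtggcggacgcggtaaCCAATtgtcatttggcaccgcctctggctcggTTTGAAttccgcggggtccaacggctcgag
Kif15: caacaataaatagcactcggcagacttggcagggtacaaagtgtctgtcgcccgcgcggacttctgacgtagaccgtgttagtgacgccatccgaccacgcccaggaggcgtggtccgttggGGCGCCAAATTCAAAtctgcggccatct
Nusap1: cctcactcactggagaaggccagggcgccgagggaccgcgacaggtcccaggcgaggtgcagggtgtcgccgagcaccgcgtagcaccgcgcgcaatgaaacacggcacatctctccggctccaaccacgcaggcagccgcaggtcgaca

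Counted from the start, with -1 as the base before it, the CHR core of Kif11 lay at -19 to -14 and the CCAAT box at -45 to -41. In Kif22 they lay at -17 to -12 and -54 to -50, and in Prc1 at -30 to -25 and -62 to -58 from its second listed start. The 21 members with a CHR core had a median difference of -0.43, and 5 of them fell in the limma fit. The 8 without one, Kif18a, Nusap1, Tacc3, Numa1, Nek2, Birc5, Cit and Pttg1, had a median of -0.22, and 1 of them, Nusap1, fell. Of all genes 1.95% fell, with a median difference of 0.01. Of the 4 members with a higher mean, Tacc3, Cit and Pttg1 held none, and Kif15 held a CHR core with an E2F-like motif beside it. Cit was higher at its brightest probe set only. All 17 members with a CCAAT box had a lower mean, against 8 of 12 without and 47.1% of all genes. CCAAT also stood in 9 of 12 genes of the licensing list (75.0%), a list whose 16 measured genes all rose. The splits by motif are descriptions of few genes, with no test.

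**Figure D5:**
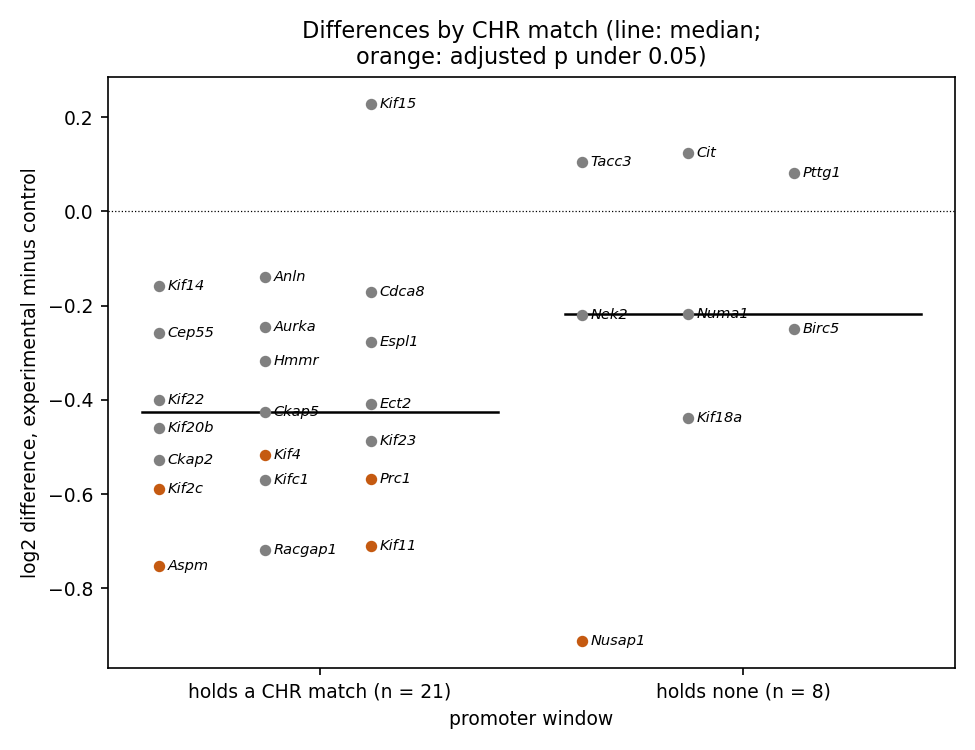
The log2 difference, experimental minus control, of the 29 genes with a promoter window is plotted by whether the window holds a CHR match, with medians of -0.43 (21 genes) and -0.22 (8 genes) as lines and genes past adjusted p 0.05 in orange. Nusap1, the lowest point, stands among the genes without a match.

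Markers of other cells moved with the comparison. Of 17 measured B lineage genes 7 fell and none rose (limma; 12 lower and 0 higher at an unadjusted p of 0.05), with a median of -1.29, and Ms4a1, the CD20 gene, differed by -2.82. Their summed linear level was 9787 to 12742 in controls and 7846 to 10437 in experimental samples, and 14 of the 17 lay above the array medians. Between 66.7% and 88.5% of that sum was Cd24a, which differed by -0.08 (adjusted p = 0.777). Without it the other 16 summed to 2075 to 4247 in controls and 1068 to 1503 in experimental samples, with no overlap. Megakaryocyte genes had 3 of 10 lower (sums of 967 to 1361 against 613 to 876) and dendritic cell genes 3 of 11 lower (3116 to 3683 against 1829 to 3057). In each of these lists 6 were lower and 0 higher at an unadjusted p of 0.05 (limma). Over all genes the adjusted call took 1.95% lower and 1.53% higher. Erythroid genes had none of 10 past the threshold (limma; 0 lower and 2 higher at an unadjusted p of 0.05), with sums of 3689 to 5095 against 3806 to 11861, the highest in experimental replicate 1. T and NK cell genes had none of 11 past it (0 lower and 5 higher at an unadjusted p of 0.05; sums of 1888 to 6445 against 3965 to 5731), and stem and progenitor genes none of 9 (5 lower and 0 higher; 2448 to 3462 against 2182 to 2989). The defining myeloid list had 1 of 13 lower, Csf3r (4 lower and 0 higher at an unadjusted p of 0.05; sums of 142305 to 149615 against 135138 to 142621). The log2 level of 3′ minus 5′ control probes for beta-actin, which rises as RNA degrades, was 0.27 to 0.32 in controls and 0.34 to 0.54 in experimental samples, and that of Gapdh was -0.14 to -0.09 against -0.16 to 0.03. Sums without the brightest gene of a list, chosen after seeing the data, also separated the groups for megakaryocyte genes (692 to 1023 in controls against 451 to 509 without Itgb3), for T and NK cell genes (1630.5 to 2476 against 2521 to 4212 without Cd3d) and for stem and progenitor genes (809.7 to 1251 against 532 to 736 without Myb). They overlapped for dendritic genes without H2-Ab1 (1952 to 2361 against 781 to 2577), erythroid genes without Tfrc (2689 to 3846 against 2599 to 9334) and myeloid genes without S100a9 (118890 to 126441 against 114022 to 119442). The part of any of these in the falls of the spindle genes was not tested.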

How the data were processed

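RNA of 8 Cd11b-positive samples, 4 per group, was labelled with biotin and hybridised to an Affymetrix mouse array. The authors deposited log2 values, 1 per probe set and array; RMA is named by the submitters' processing notes, with no version and no word on whether it ran over all arrays at once. Of 45101 probe sets, 64 Affymetrix controls were left out. Of the other 45037, 34945 had 1 gene symbol, 932 several and 9160 none, and all 33 members matched RefSeq by gene identifier. Groups came from the sample titles.

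Each probe set was fitted with limma 3.58.1 in R 4.3.3 (lmFit, eBayes, group alone) with no filter, and p-values were Benjamini-Hochberg adjusted over all 45037. Errors of differences are moderated standard errors. A two-sided exact permutation test of single genes cannot go below p = 0.0286, which each member with separate groups reached. The number of arrays limits the precision. The fit was tested on simulated data.

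The members, lists and motifs were chosen with earlier results of these data known. Values in every array are given for members past the threshold and the brightest of each role group; the arrays of Kif15, Kif20a and Racgap1, and some single values of Kifc1, Nek2 and Aurkb, were added after their values were seen. From other lists up to 4 genes with the smallest p are named, or the 2 brightest, and Cenpe, Plk1, Stmn1, Itgam, Ms4a1 and Psrc1 were added likewise. Deviations from the group means correlated at 0.20 to 0.26 within each of the 4 pairs that share a number. The labels do not say that the numbers pair the samples, and the main fit did not pair them. Pairs of unlike number gave 0.14 to 0.26 within a code style and -0.27 to -0.13 across styles. By sex read from Xist and Eif2s3y, 2 controls and 1 experimental sample were male. Alternatives were blocks for replicate number, code style and sex, 2 scalings, a filter on dim probe sets, other variance models and array weights, other ways to take a gene's probe sets, single arrays left out, and each code style alone.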

Additional observations from a re-analysis of the deposited data

Results flagged for a closer look

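In 2 of 66 sets of 4 arrays, 1 array stood far from the others of its group relative to their range, where chance alone gives about 1 in 20. For Kif4, experimental replicate 2 read 7.44 against 7.39 in the next array, within a group whose whole spread was small. For Tacc3, control replicate 2 read 7.94 against 8.13 in the next control. Neither value changes which genes fell: Kif4 also passed without experimental replicate 2, and Tacc3 did not pass in any fit that leaves out 1 array.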

How the results depend on the processing

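Over all genes, the share that fell under each setting stands beside its count in the text above. Of the 6 genes that fell, the same 6 fell with median centring, quantile normalization, trended and robust variance, and among probe sets above the median level. They were also among the 7 with array weights, the 8 with probe sets averaged by gene, the 10 with the replicate block and the 11 with code style as a block. With sex as a block 5 fell, without Kif11, and with the most variable probe set 4, of which 3 were among the 6. The number of motors that fell was 5 with the replicate block and 6 with code style as a block. Of passenger and cytokinesis genes, 2 fell with the replicate block, with code style as a block and with probe sets averaged. Within replicates 1 and 2 alone or 3 and 4 alone the 3 counts were 0. Without 1 array the number of members that fell was 1 to 9, of motors 0 to 4, and of passenger and cytokinesis genes 0 to 2, and no member rose in any alternative. The median of the 33 lay between -0.45 and -0.28 over the alternatives, all within the spread between arrays. Over all probe sets, 1277 fell and 1000 rose with the replicate block, 1446 and 1136 with code style as a block, 370 and 293 with sex as a block, 70 and 60 within replicates 1 and 2, and 177 and 241 within replicates 3 and 4; without 1 array, 219 to 978 fell and 176 to 766 rose. Numa1 was higher by 0.25 at its most variable probe set, and Pttg1 ranged from -0.0011 (without control replicate 3) to 0.17 (without control replicate 1) in fits lacking 1 array, none past the threshold. Fits within a code style have 2 arrays per group and leave out arrays by construction; the cause of the other changes was not tested. Leaving out the brightest gene of a marker list, added after seeing the data, moved the B lineage sum from -0.30 to -1.22 (log2, experimental minus control), and those of megakaryocyte, T and NK, and stem genes by more than the spread between arrays.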
